A study of Mus musculus with 5 samples.

Results

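Runx1, Cebpb, Stat3, Relb, Met, Cd44, Tnfrsf1a, Lgals3 and Plaur are transcription factors, receptors and a lectin known from the mesenchymal class of human glioblastoma. They were chosen by symbol, through the RefSeq accession that each array probe carries, and made up 9 of the 21154 genes that could be named and 16 of the 55681 probes. The samples were 3 gliomas from mice of the MADM model and 2 normal brains, all of postnatal day 150, with 1 single-colour Agilent 60K array each. MADM, mosaic analysis with double markers, uses recombination between paired chromosomes to give sparse, colour-marked mutant cells inside an otherwise heterozygous animal. The labels used here name no allele, Cre line, strain or sex for either group, and do not say whether replicates were separate animals. The p-values therefore measure only how these 5 samples vary, which may be technical. The gliomas lay in row 1 of the slide and the normal brains in row 2, so slide row and group cannot be told apart.

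Human glioblastomas are often grouped by expression into proneural, classical and mesenchymal classes. In the mesenchymal class the transcription factors CEBPB and STAT3, with RUNX1 and others, are known as upstream regulators, and signalling from the TNF receptor through NF-kB is known to push human glioma cells towards that state. MET, CD44 and the urokinase receptor PLAUR stand at the cell surface and bind a growth factor, hyaluronan and a protease, while galectin-3 binds sugars on matrix and membrane proteins. Microglia and macrophages, which enter gliomas in numbers, also use most of these genes.

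Levels below are log2 processed signals relative to the 75th percentile of the same array, so that 0 marks that percentile, and changes are the glioma mean minus the normal brain mean on that scale. A change was called at an adjusted p under 0.05 from limma over 16888 tested genes, and a probe was called detected where Feature Extraction flagged it as well above background. Between 65.9% and 70.3% of spots were detected on glioma arrays and 61.5% to 64% on normal brain arrays, and no spot was saturated. The groups differed across the transcriptome, with 8687 genes, or 51.4%, called. In the summed linear level of cell type markers, neurons stood at 28.6 to 41.5 in gliomas against 283 to 292 in normal brains, oligodendrocytes at 25.9 to 87.4 against 248 to 268, and oligodendrocyte progenitors at 132 to 189 against 10.8 to 11.1. Dividing cell markers summed to 13.1 to 23.2 in gliomas and 0.166 to 0.227 in normal brains, and astrocyte markers to 142 to 268 in gliomas and 281 to 293 in normal brains. Aldoc made up most of the astrocyte sum, which without it was 13.6 to 29.5 in gliomas and 36.3 to 36.8 in normal brains, and 2 of the 6 astrocyte markers, Gja1 and Slc1a2, fell. Endothelial markers summed to 6.45 to 7.37 in gliomas and 16.4 to 19.1 in normal brains, and markers of mural cells and fibroblasts to 1.75 to 2.23 in gliomas and 8.5 to 8.7 in normal brains. In these bulk samples fewer cells of a type and less RNA per cell cannot be told apart.

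Promoter windows of 250 bases, ending at the base before the annotated start, were available from RefSeq (GRCm38.p6) for all members but Relb, with 2 windows for Runx1. They are printed for the gene with the largest change of the 9, for the receptor with the largest change, and for the 2 members whose windows held an AP-1 match. Capitals mark matches on either strand to 6 motifs: RUNX (TGTGGT), C/EBP (TTGCNNAA), STAT (TTCNNNGAA), NF-kB (GGGNNTTCC), AP-1 (TGANTCA) and the GC box (GGGCGG). The first Runx1 window lies at chr16:92826075-92826324, minus strand, and the second at chr16:92697330-92697579, minus strand. The windows of Tnfrsf1a at chr6:125349473-125349722, Plaur at chr7:24462233-24462482 and Met at chr6:17463707-17463956 lie on the plus strand.
Runx1 first window: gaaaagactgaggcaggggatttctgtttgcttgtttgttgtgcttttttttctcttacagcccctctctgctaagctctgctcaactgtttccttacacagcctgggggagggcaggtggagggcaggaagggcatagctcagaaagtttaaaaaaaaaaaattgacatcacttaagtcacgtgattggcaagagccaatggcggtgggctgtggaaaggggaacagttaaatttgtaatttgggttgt
Runx1 second window: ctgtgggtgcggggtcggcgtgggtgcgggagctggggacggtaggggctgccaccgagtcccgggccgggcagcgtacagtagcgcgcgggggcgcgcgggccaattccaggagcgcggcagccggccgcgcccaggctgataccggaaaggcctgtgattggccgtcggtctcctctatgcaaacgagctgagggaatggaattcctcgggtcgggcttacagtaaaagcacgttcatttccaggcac
Tnfrsf1a: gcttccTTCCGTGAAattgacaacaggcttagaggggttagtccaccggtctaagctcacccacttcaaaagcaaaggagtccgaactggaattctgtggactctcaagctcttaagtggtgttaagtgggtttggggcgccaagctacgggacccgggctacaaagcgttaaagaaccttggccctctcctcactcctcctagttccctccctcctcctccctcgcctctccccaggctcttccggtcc
Plaur: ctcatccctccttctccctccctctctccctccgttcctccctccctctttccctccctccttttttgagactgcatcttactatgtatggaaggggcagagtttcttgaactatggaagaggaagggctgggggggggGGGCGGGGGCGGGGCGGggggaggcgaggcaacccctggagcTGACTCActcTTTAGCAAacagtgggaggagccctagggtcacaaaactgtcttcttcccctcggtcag
Met: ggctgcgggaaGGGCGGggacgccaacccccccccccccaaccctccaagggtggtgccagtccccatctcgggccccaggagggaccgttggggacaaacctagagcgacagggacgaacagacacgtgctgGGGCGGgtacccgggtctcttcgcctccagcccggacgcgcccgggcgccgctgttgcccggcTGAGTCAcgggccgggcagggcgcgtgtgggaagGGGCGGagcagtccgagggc
Neither Runx1 window held any of the 6 motifs, and they differed in base composition, with 45.6% G and C in the first and 67.6% in the second. The Tnfrsf1a window held a single STAT match, TTCCGTGAA, 244 to 236 bases before the start. In the Plaur window an AP-1 match, TGACTCA, lay 69 to 63 bases before the start and a C/EBP match, TTTAGCAA on the printed strand, 59 to 52 bases before it, downstream of 3 GC boxes of which the last 2 share a base. The Met window held the AP-1 match TGAGTCA at 54 to 48 bases before the start and 3 GC boxes. Among 32851 windows of all genes, 7.02% held the STAT motif, 6.75% the AP-1 motif, 9.56% the C/EBP motif and 32.7% the GC box. The RUNX and NF-kB motifs, found in 14% and 4.98% of all windows, were in no member window, and these matches describe letters only.

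Of the 9 genes, 6 rose in glioma and none fell, against 23.6% of all tested genes that rose and 27.8% that fell. Runx1, Cebpb, Stat3, Tnfrsf1a, Lgals3 and Plaur rose, with changes between 0.76 and 4.21 on the log2 scale. Relb, Met and Cd44 did not pass the test. The median change was 1.38 over the 9 genes and -0.05 over all tested genes. In 8 of the 9 genes all glioma values lay above all normal brain values, as in 35.2% of all tested genes. Groups stood apart in either direction in 74.1% of them. Met was the exception. The authors' unscaled value table shifted the median of all genes to 0.31, against -0.05 after scaling. The share of rises among all calls was 63.7% there, against 46% after scaling, and 8 members rose, all but Met. Without 1 normal brain only 1 remains, so standard errors grow, and a call lost there does not show that a change rests on that sample. Cebpb, for example, changed by 0.77 and 0.75 there against 0.76, with a standard error of 0.25 against 0.142. Leaving out either normal brain sample leaves 4 members called, Runx1, Stat3, Tnfrsf1a and Lgals3, with 4629 and 4648 genes called in all, and leaving out glioma 1 leaves 8, all but Met.

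**Figure D1:**
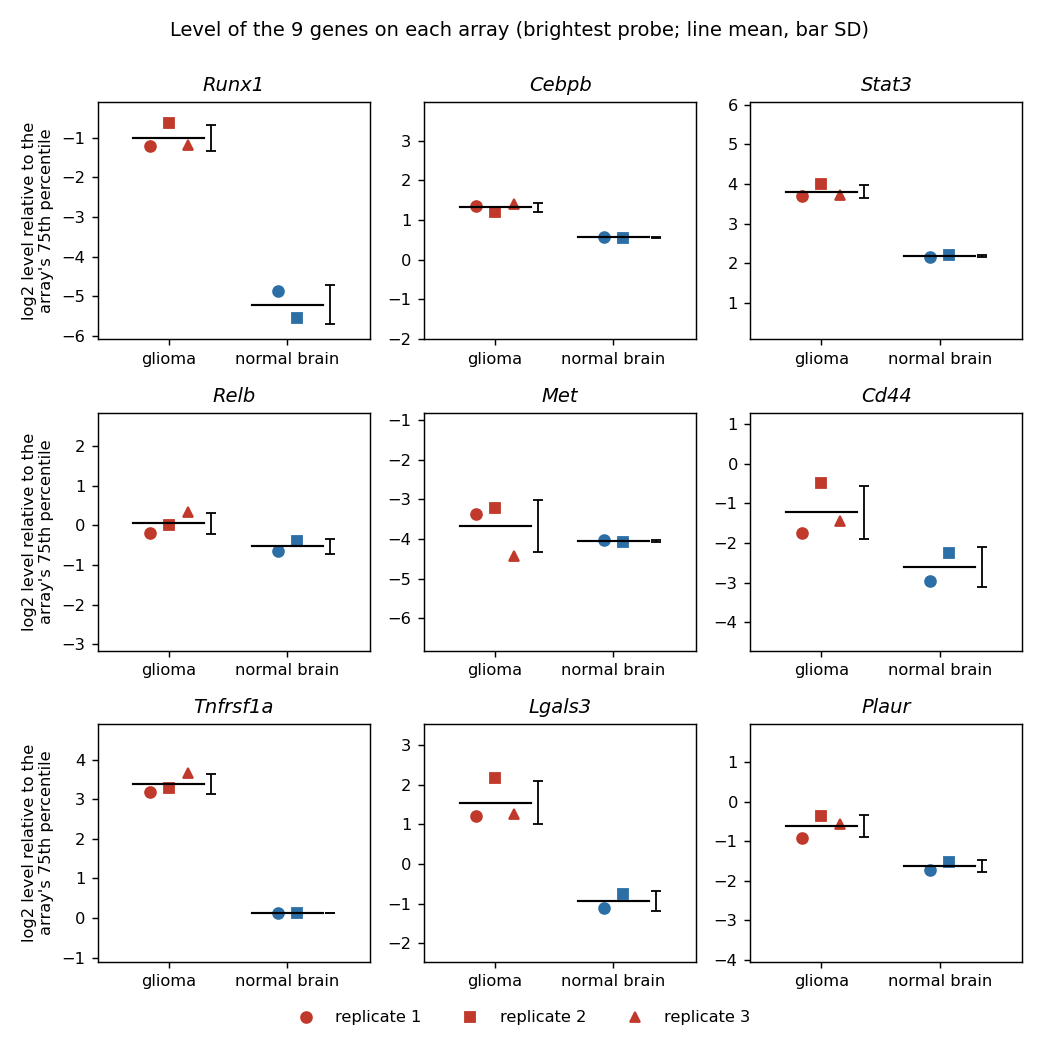
Log2 level of each of the 9 genes relative to the array's 75th percentile, with 3 glioma arrays left of 2 normal brain arrays in every panel (points single arrays, lines means, bars SD; every panel spans 6 log2 units). The groups stand apart in 8 panels, farthest in Runx1 and Tnfrsf1a, and overlap in Met.

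Runx1 encodes the DNA-binding subunit of core binding factor, best known from blood cell formation. Its brightest probe stood at -1.20, -0.62 and -1.19 in gliomas 1 to 3, against -4.86 and -5.56 in normal brains 1 and 2. Every glioma lay far above both normal brains, of which only normal brain 1 was detected. Runx1 rose by 4.21 ± 0.30 (SE), 18.5-fold in the fit (95% interval 3.44 to 4.98 on the log2 scale, adjusted p = 0.000611), the widest change of the 9. With normexp background correction, which adds an offset that shrinks changes of dim probes, the change was 2.40. Its other probe, detected in all 3 gliomas and in neither normal brain, read -4.20, -3.20 and -4.61 in gliomas and -6.13 and -7.16 in normal brains, which bounds the rise at 2.35-fold or more.

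Among 7 genes of the RUNX family and its partners, 3 rose and 3 fell, beside 23.6% and 27.8% of all tested genes. The median change of the 7 was 0.13. Without normal brain 1 there were 2 rises and 2 falls, and without normal brain 2 there were 2 and 1. Cbfb, the shared non-DNA-binding partner of the RUNX proteins, rose by 1.90 ± 0.14 (adjusted p = 0.000642). Runx3 rose by 0.65 ± 0.15 (adjusted p = 0.0189), but its change was 0.13 (adjusted p = 0.385) with normexp correction and its call was lost without normal brain 1 (0.088) or 2 (0.171). Its other detected probe, dimmer over all arrays, changed by 4.96, and the mean of both probes rose by 2.80 (adjusted p = 0.000544). Runx2, a regulator of bone formation, changed by 0.13 ± 0.80 (adjusted p = 0.904) at its brightest probe. Its 3 detected probes changed by 0.13 to 1.68. The brightest read -2.70, -3.02 and -0.52 in gliomas and -2.01 and -2.41 in normal brains. Glioma 3 alone lay above the normal brains, and without it the change was -0.65 (adjusted p = 0.0689). Of the corepressors of the ETO family, Cbfa2t3 fell by 3.58 ± 0.19 (adjusted p = 0.000403) at its brightest probe, whereas another detected probe changed by 0.19. Runx1t1 fell by 1.25 (adjusted p = 0.00499), a call lost without normal brain 2 (0.0506).

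Cebpb encodes a basic leucine zipper factor of the acute phase response. Its levels were 1.36, 1.19 and 1.41 in gliomas and 0.57 and 0.56 in normal brains, close together within each group and without overlap. Cebpb rose by 0.76 ± 0.14, 1.69-fold (95% interval 0.40 to 1.12, adjusted p = 0.00908), the smallest called change of the 9. The call was lost without normal brain 1 (adjusted p = 0.0873) or 2 (0.0899). Of the 5 tested C/EBP family genes 2 rose and none fell, beside 23.6% and 27.8% of all tested genes. Fewer of the 5 rose without either normal brain. The other rise was in Cebpd, a close paralogue and also an acute phase factor, by 1.94 ± 0.18 (adjusted p = 0.00105). Cebpg, which lacks an activation domain, changed by 0.85 (adjusted p = 0.0568).

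Of the other factors named beside CEBPB and STAT3 in human mesenchymal glioma, 2 of 8 tested rose and 3 fell. Over all tested genes 23.6% rose and 27.8% fell. This count does not separate factors that activate from those that repress. Without glioma 2 there was 1 rise, and without either normal brain there was none. Fosl2, an AP-1 subunit, fell by 2.06 ± 0.13 (adjusted p = 0.000513), and Bhlhe40, a helix-loop-helix factor, fell by 2.07 ± 0.14 (adjusted p = 0.000545). Wwtr1, the coactivator TAZ of the Hippo pathway, rose by 0.75 (adjusted p = 0.0128), and was not called without normal brain 1 (0.111) or 2 (0.0958). Tead2, a DNA-binding partner of TAZ, rose by 1.30 (adjusted p = 0.035), and its call was lost without glioma 1 (0.0729), glioma 2 (0.096) or either normal brain (0.133 and 0.14).

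Stat3 carries signals of the IL-6 cytokine family from Janus kinases to the nucleus. Its brightest probe, printed on 10 spots of each array, read 3.70, 3.99 and 3.71 in gliomas and 2.16 and 2.20 in normal brains. The spots of an array differed by an SD of only 0.034 to 0.047, and the groups did not overlap. Stat3 rose by 1.62 ± 0.16, 3.08-fold (95% interval 1.22 to 2.02, adjusted p = 0.00117). The other probe gave a like rise of 1.86 ± 0.19 (adjusted p = 0.00198 over all probes), with levels of -1.78, -1.41 and -1.82 in gliomas and -3.48 and -3.59 in normal brains.

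Of 21 tested genes of the IL-6 family, its receptors, kinases and STATs, 8 rose, 3 fell and 10 did not pass. The shares over all tested genes were 23.6% that rose and 27.8% that fell. The median change of the 21 was 0.35. The unscaled values gave 12 rises and no fall, and leaving out either normal brain gave 4 rises and no fall. Socs3, a known STAT3 target and its feedback inhibitor, stood at 1.00, 1.40 and 0.88 in gliomas and -1.34 and -1.43 in normal brains and rose by 2.48 ± 0.20 (adjusted p = 0.00077). Pim1, a kinase induced by STATs, rose by 1.92 ± 0.19 (adjusted p = 0.00131). Stat5a, a STAT of cytokine and growth hormone signalling, rose by 2.84 ± 0.15 (adjusted p = 0.000403).

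Osmr, the oncostatin M receptor, rose by 1.08 ± 0.25 (adjusted p = 0.0178), a call lost without normal brain 1 (0.104) or 2 (0.09). Il6st, the shared receptor chain gp130, changed by 0.22 (adjusted p = 0.353). Il6 was not tested, being detected on fewer than 2 arrays. Jak1 fell by 0.75 (adjusted p = 0.00851), but changed by -0.40 (adjusted p = 0.146) in the unscaled table and lost its call without normal brain 1 (0.0917) or 2 (0.0825).

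Relb encodes the NF-kB subunit of the non-canonical arm, which is switched on through the kinase NIK and pairs with the p52 product of Nfkb2. Its levels were -0.20, 0.01 and 0.34 in gliomas and -0.66 and -0.40 in normal brains, higher in every glioma but by a margin of the same order as the spread. The change of 0.58 ± 0.21, 1.49-fold (95% interval 0.04 to 1.12), had an adjusted p of 0.0729 and did not pass. It passed with normexp correction (0.55, adjusted p = 0.0483), in the unscaled table (0.93, 0.019) and without glioma 1 (0.70, 0.0469). The other probe changed by 0.29 ± 0.20 (adjusted p = 0.296 over all probes).

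Among NF-kB genes 3 of 12 tested rose, near the 23.6% of all tested genes that rose, and none was called lower. Their median change was 0.17. In the unscaled table there were 5 rises and no fall. After scaling, all 3 rises belonged to the canonical arm. Rela, the p65 subunit, rose by 0.83 (adjusted p = 0.00807), Nfkb1, its p50 partner, by 0.78 (adjusted p = 0.00947), and Ikbkb, the kinase that frees them, by 0.76 (adjusted p = 0.0149). These 3 calls were lost without either normal brain sample (adjusted p from 0.0744 to 0.111). Around Relb itself, Nfkb2 changed by 0.11 (adjusted p = 0.82) and Map3k14, which encodes NIK, by 0.05 (adjusted p = 0.881) at its brightest probe. Another detected probe of Map3k14 changed by 1.28. The difference between the arms was not tested.

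Tnfrsf1a encodes TNF receptor 1, which leads to NF-kB activity or to cell death. Its brightest probe stood at 3.18, 3.27 and 3.66 in gliomas, against 0.13 and 0.13 in normal brains. The groups were far apart beside their spread, and Tnfrsf1a rose by 3.24 ± 0.19, 9.47-fold (95% interval 2.75 to 3.73, adjusted p = 0.000457). The other probe, on 10 spots, read 2.26, 2.48 and 2.12 in gliomas and 0.13 and 0.24 in normal brains, a rise of 2.11 ± 0.17 (adjusted p = 0.00119 over all probes). Both probes placed every glioma above both normal brains, and they differed in size and in which glioma was highest.

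Of the 12 genes around TNF receptor 1, its own included, 8 rose and none fell, beside 23.6% and 27.8% of all tested genes. The median change of the 12 was 1.47, or 1.26 with undetected groups set at their bound. Casp8, the initiator caspase of death receptors, rose by 2.52 ± 0.25 (adjusted p = 0.00126). Ripk1, the kinase of the receptor complex, rose by 1.94 ± 0.22 (adjusted p = 0.00197), and the ubiquitin ligase Birc3 by 1.54 ± 0.29 (adjusted p = 0.00913), with detection in 1 of 2 normal brains and an adjusted p of 0.0608 without normal brain 2. The change of Birc3 was 0.55 with normexp correction (adjusted p = 0.0185). The adaptor Traf2 rose by 0.98 (adjusted p = 0.0047), and missed the threshold without normal brain 1 (0.0539) or 2 (0.053). The adaptors Tradd, at -0.33 (adjusted p = 0.33), and Fadd, at 1.41 (adjusted p = 0.0533), did not pass.

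Tnf, the ligand, was detected in 2 of 3 gliomas and in neither normal brain, with a called change of 2.28 (adjusted p = 0.0413) that came to 0.26 (adjusted p = 0.339) with normexp correction and was lost without glioma 3 (0.0835) or either normal brain (0.154 and 0.131). Tnfrsf1b, the second TNF receptor, was at least 2.18-fold higher in glioma (adjusted p = 0.00967), with a change of 0.20 (adjusted p = 0.285) under normexp correction and an adjusted p of 0.0658 without normal brain 2. Without normal brain 1 the number of rises among the 12 genes was 5, and without normal brain 2 it was 3.

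Met encodes the receptor tyrosine kinase for hepatocyte growth factor. It was dim, with mean signals of 88, 114 and 41.8 in gliomas and 49.9 and 44.6 in normal brains, although all 10 spots of its probe were well above background on every array. The levels were -3.38, -3.22 and -4.42 in gliomas and -4.03 and -4.07 in normal brains. Gliomas 1 and 2 lay above the normal brains and glioma 3 below them. The change was 0.38 ± 0.39 (95% interval -0.62 to 1.39, adjusted p = 0.453), and 0.03 with normexp correction. Without glioma 3 it was 0.75 (adjusted p = 0.0122).

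Its ligand and its closest relative were lower. Hgf fell by 1.59 ± 0.36 (adjusted p = 0.0175), with detection in 2 of 3 gliomas, and lost its call in the unscaled table (0.0637) and without glioma 1 (0.0509), normal brain 1 (0.0891) or normal brain 2 (0.0823). Mst1r, the receptor RON, fell by 3.32 ± 0.31 (adjusted p = 0.00106) and was detected in 1 of 3 gliomas. With normexp correction Hgf changed by -0.79 and Mst1r by -1.60, and both passed. Gab1, the docking protein of MET, rose by 1.96 ± 0.24 (adjusted p = 0.00241), and St14, the membrane protease matriptase that activates HGF, rose by 1.95 ± 0.28 (adjusted p = 0.00382). Spint1, an inhibitor of that activation, changed by 1.60 ± 1.32 (adjusted p = 0.354), and by 2.78 (adjusted p = 0.0455) without glioma 3. Over the list 2 of 11 tested genes rose and 3 fell, beside 23.6% and 27.8% of all tested genes. There were 4 rises without glioma 3, and 3 rises and 1 fall in the unscaled table.

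Cd44 encodes the main surface receptor of hyaluronan. Its brightest probe read -1.75, -0.48 and -1.45 in gliomas and -2.96 and -2.26 in normal brains, with glioma 2 well above the other two. The groups did not overlap, but the change of 1.38 ± 0.45, 2.61-fold (95% interval 0.24 to 2.52), had an adjusted p of 0.051. Cd44 passed in 5 of 13 other settings and not in 8. It passed without glioma 1 (1.64, adjusted p = 0.0455) and in the unscaled table (1.74, 0.0369). It also passed among genes detected on all 5 arrays (0.0413) and with an intensity trend (0.0401). It did not pass with normexp correction (0.97, adjusted p = 0.0591), with the mean of detected probes (1.04, 0.164) or without glioma 2 (1.01, 0.0629). A second detected probe read -3.56, -2.49 and -3.36 in gliomas and -4.87 and -2.82 in normal brains, a change of 0.71 ± 0.68 (adjusted p = 0.443 over all probes) with overlapping groups. The remaining 2 probes were not well above background on any array.

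Among 12 tested genes around CD44 and hyaluronan, proteins that tie CD44 to actin included, 3 rose and 3 fell. The shares over all tested genes were 23.6% and 27.8%. The authors' unscaled values gave 6 rises and 3 falls, and the genes detected on all 5 arrays gave 3 and 1. Of the synthases, Has2 rose by 3.63 ± 0.38 (adjusted p = 0.00142, detected in 1 of 2 normal brains) and Has1 fell by 3.81 ± 0.14 (adjusted p = 0.000338, detected in 2 of 3 gliomas). With normexp correction these changes were 1.87 and -2.03, and both passed. Msn, moesin, which ties CD44 to the actin cortex, rose by 2.05 ± 0.25 (adjusted p = 0.00227). The hyaluronan receptor Hmmr, also a spindle protein, rose by 1.30 ± 0.17 (adjusted p = 0.00272). Lyve1, the hyaluronan receptor of lymphatic vessels, was at least 2.41-fold lower in glioma (adjusted p = 0.00315; -0.84 with normexp correction), and the hyaluronidase Hyal1 fell by 1.54 ± 0.26 (adjusted p = 0.00612).

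Plaur encodes the receptor that holds urokinase at the cell surface. Its levels were -0.92, -0.36 and -0.56 in gliomas and -1.73 and -1.52 in normal brains, without overlap. Plaur rose by 1.01 ± 0.21, 2.01-fold (95% interval 0.46 to 1.55, adjusted p = 0.0139). The call was lost without normal brain 1 (0.91, adjusted p = 0.105) or 2 (1.11, adjusted p = 0.0662).

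In the urokinase system 5 of 7 tested genes rose and 1 fell, beside 23.6% and 27.8% of all tested genes. The median change of the 7 was 1.23. The ligand Plau was not tested, being detected on fewer than 2 arrays. Serpine2, the inhibitor protease nexin-1, rose by 3.21 ± 0.24 (adjusted p = 0.000651). The tissue-type activator Plat rose by 1.58 ± 0.16 (adjusted p = 0.00128). Lrp1, which clears protease and inhibitor complexes, rose by 1.23 ± 0.23 (adjusted p = 0.00881), with adjusted p of 0.0559 and 0.068 without normal brain 1 or 2. The faller was Vtn, the matrix protein vitronectin that PLAUR also binds, which fell by 2.20 ± 0.14 (adjusted p = 0.000503). Without either normal brain 2 genes of this list rose.

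Lgals3 encodes galectin-3, a secreted lectin made in quantity by activated macrophages. Its levels were 1.21, 2.18 and 1.26 in gliomas and -1.11 and -0.75 in normal brains. All gliomas lay above both normal brains, with glioma 2 highest. Lgals3 rose by 2.48 ± 0.35, 5.59-fold (95% interval 1.58 to 3.39, adjusted p = 0.00381). Of 7 tested genes, galectins and the galectin-3 ligand Lgals3bp, 4 rose, Lgals3 among them, and none fell. The shares over all tested genes were 23.6% that rose and 27.8% that fell. Lgals3bp, a secreted galectin-3 ligand, rose by 3.83 ± 0.36 (adjusted p = 0.0011), and Lgals9 by 3.19 ± 0.36 (adjusted p = 0.00193). Lgals1, which belongs to the human mesenchymal class, changed by 1.06 ± 0.62 (adjusted p = 0.207), and by 1.64 (adjusted p = 0.0143) without glioma 3.

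Counted by probe, 9 of the 14 tested probes of these genes were called higher and none lower, against 41.9% of all tested probes called and 21.1% called higher.

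**Figure D2:**
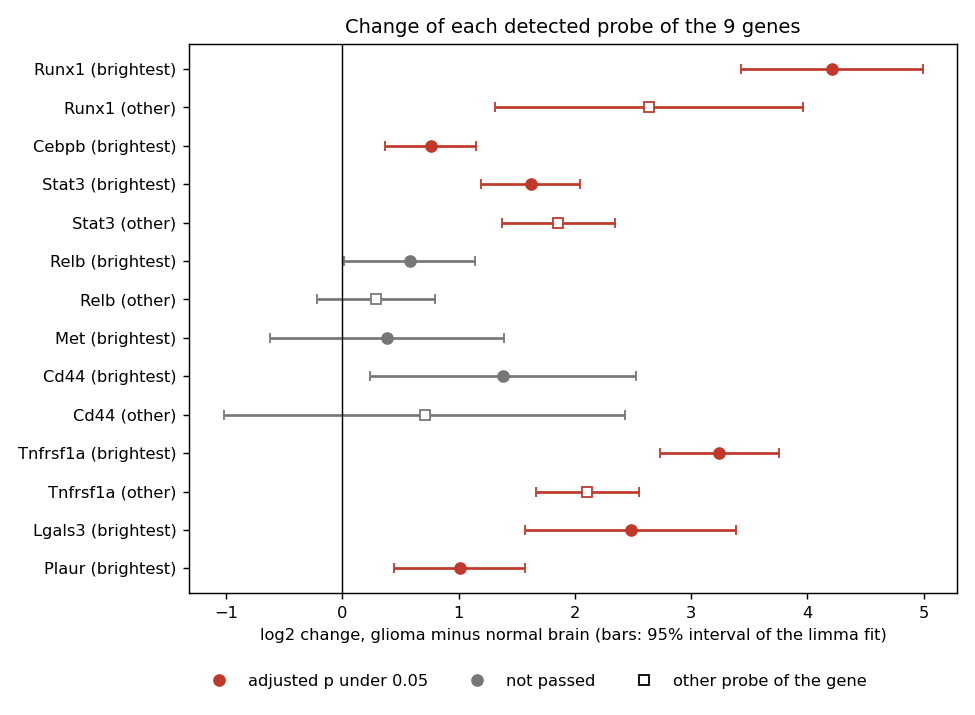
Log2 change, glioma minus normal brain, of the 14 tested probes of the 9 genes, with the 95% interval of the limma fit (filled circles brightest probes, open squares other probes, red where the adjusted p over all probes is under 0.05). All changes are above 0, and the intervals of Met and of the second Relb and Cd44 probes include 0.

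Genes of the human mesenchymal class other than the members were counted as a further list. Of its 13 tested genes 6 rose and 1 fell, beside 23.6% and 27.8% of all tested genes. The median change of the 13 was 1.06. Vim, the intermediate filament vimentin, rose by 3.50 ± 0.33 (adjusted p = 0.00112). Casp1, the inflammatory caspase, rose by 2.59 ± 0.27 (adjusted p = 0.00146), the innate receptor Tlr2 by 2.65 ± 0.44 (adjusted p = 0.00611), and the adhesion molecule Icam1 by 2.51 ± 0.23 (adjusted p = 0.00106, detected in 1 of 2 normal brains; 1.02 with normexp correction). Timp1, a metalloproteinase inhibitor, rose by 2.17 ± 0.67 (adjusted p = 0.0437) and S100a4, a calcium-binding protein of motile cells, by 1.51 ± 0.42 (adjusted p = 0.0317).

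Part of these calls were lost under other settings or with 1 sample left out. Timp1 was not called with normexp correction (0.0593) or without glioma 1 (0.0961) or either normal brain (0.141 and 0.156), and S100a4 was not called without glioma 1 (0.0819), glioma 2 (0.0566) or either normal brain (0.15 and 0.0969). Anxa1, an anti-inflammatory annexin, fell by 1.43 ± 0.40 (adjusted p = 0.0339), and was not called in the unscaled table (0.112) or without glioma 1 (0.0871), glioma 3 (0.0799) or either normal brain (0.0715 and 0.173). Over all 114 tested genes of the 11 lists, members included, 46 rose and 17 fell, beside 23.6% and 27.8% of all tested genes. Fewer were called without either normal brain, as was so over all tested genes.

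**Figure D3:**
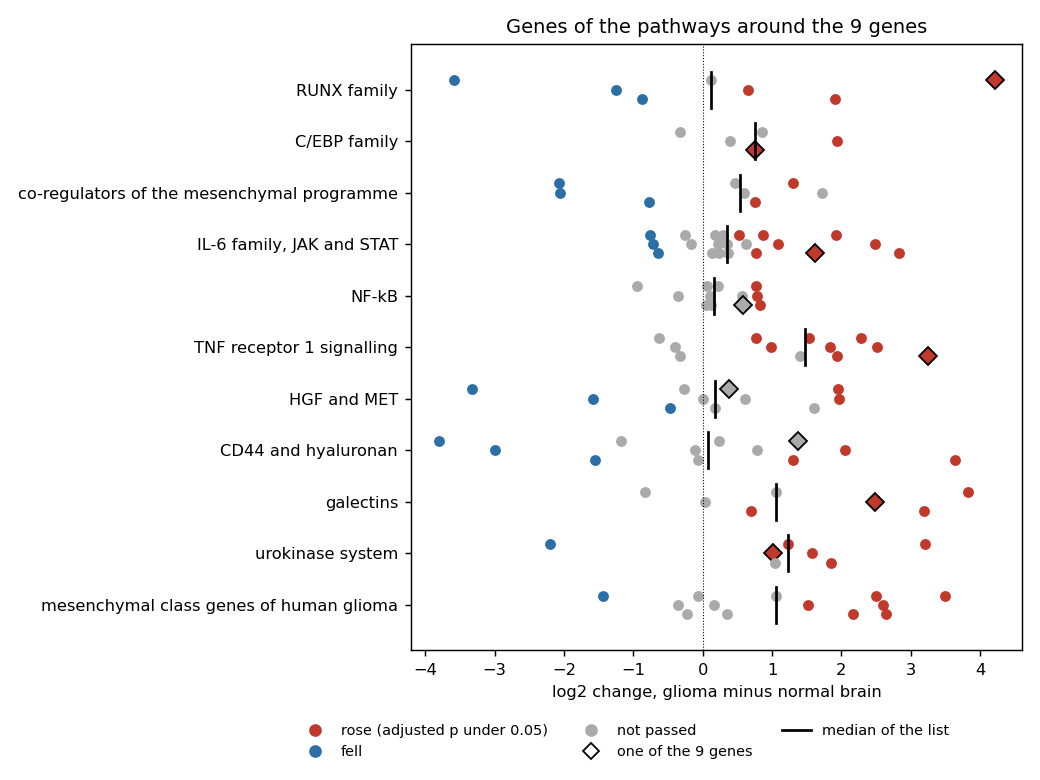
Log2 change, glioma minus normal brain, of every tested gene of the 11 pathway lists, 1 row per list and 1 point per gene (red rose, blue fell, grey not passed, diamonds the 9 genes, vertical bars list medians). The TNF receptor 1, galectin and urokinase rows lie mostly above 0, with medians of 1.47, 1.06 and 1.23, and the RUNX, HGF and hyaluronan rows spread to both sides, with medians of 0.13, 0.18 and 0.08.

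The 3 gliomas differed from each other in several of the 9 genes. The SD between gliomas was 0.67 for Cd44, 0.65 for Met and 0.55 for Lgals3 on the log2 scale, above that of 88.4%, 87.8% and 82.6% of all tested genes. Cebpb and Stat3 were the most even, with SDs of 0.12 and 0.16, below the median of 0.26 over all tested genes. Glioma 2 was the highest glioma in 6 genes, Runx1, Stat3, Met, Cd44, Lgals3 and Plaur, and glioma 3 in Cebpb, Relb and Tnfrsf1a. Among all tested genes glioma 2 was highest in 27.6%.

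Markers of microglia and macrophages moved with the same glioma. Glioma 2 was the highest glioma in 11 of the 12 markers. Their mean log2 level was 2.56, 3.47 and 2.20 in gliomas 1 to 3, against 1.84 and 1.78 in normal brains, so that all gliomas lay above both normal brains. Their summed linear level was 117, 222 and 99 in gliomas and 101 and 104 in normal brains. Without Itgam, whose detected probes disagreed, it was 112, 206 and 78.1 in gliomas and 58 and 59.3 in normal brains, a sum taken after its values were seen. Of these markers 7 rose and 1, Itgam, fell (-1.83, adjusted p = 0.0439, with another detected probe at 0.45), while 3 rose without glioma 1, 2 without normal brain 1 and none without normal brain 2. The others, Cx3cr1, P2ry12, Tmem119 and Csf1r, changed by 0.35, -0.29, 0.68 and 0.44 and did not pass. In glioma 3 these lay below both normal brains. Over all tested genes 23.6% rose. Neutrophil and monocyte markers summed to 57.6 to 99.8 in gliomas and 58.4 to 65.2 in normal brains over the 2 tested of 6. Csf3r made up nearly all of this sum, and S100a9 was detected in 1 of 3 gliomas and both normal brains. The mean log2 level of Csf3r and S100a9 was -0.72 to 1.62 in gliomas and 1.24 to 1.42 in normal brains. S100a8, Ly6c2, Ccr2 and Retnlg were not tested. T cell markers summed to 2.75 to 4.46 in gliomas and 4.12 to 4.37 in normal brains over the 4 tested of 6, with Cd3g and Cd8a not tested. The part of these cells in the levels of the 9 genes was not tested.

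**Figure D4:**
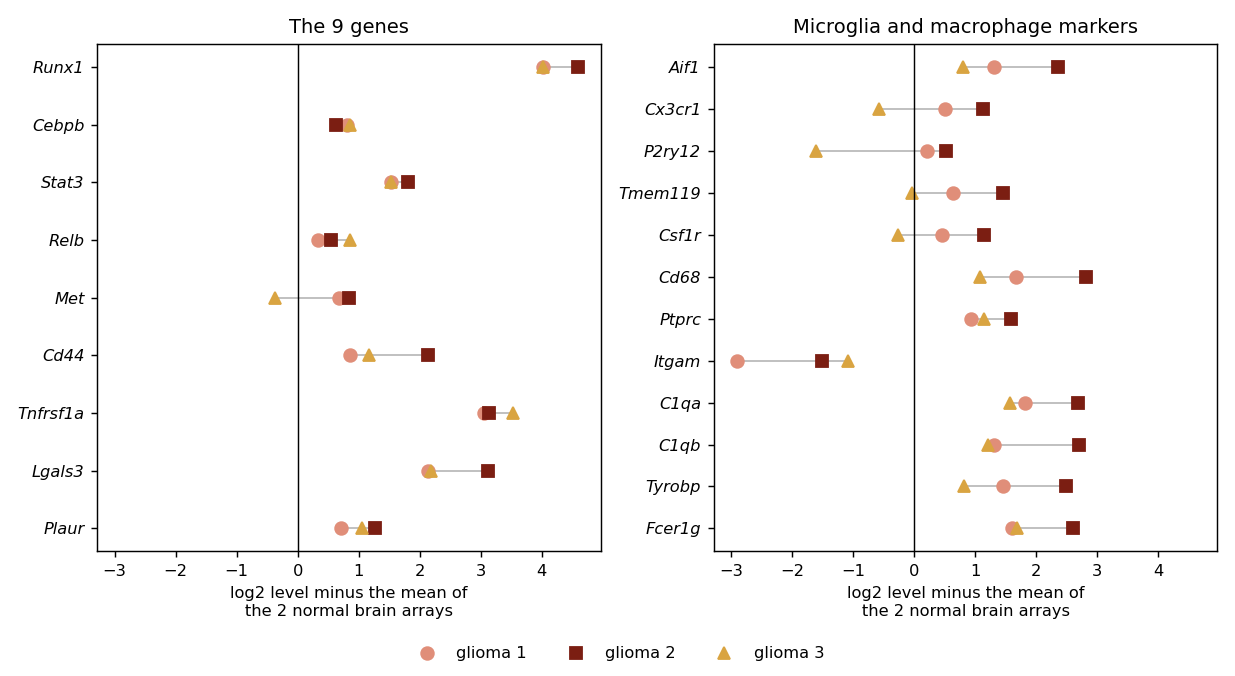
Log2 level in each glioma minus the mean of the 2 normal brain arrays, for the 9 genes and for the 12 microglia and macrophage markers, 1 row per gene. Glioma 2 is the rightmost glioma in 6 of 9 genes and in 11 of 12 markers.

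For the 8 members detected on all 5 arrays, the gene with the most similar profile was taken as the one with the smallest Euclidean distance between log2 levels after removal of each gene's mean, among 14144 candidates. The distance was 0.0448 from Cebpb to Rab10, 0.0644 from Plaur to Apom, 0.071 from Stat3 to Lig3 and 0.0873 from Relb to Ascl2. It was 0.137 from Met to Mgst1, 0.177 from Tnfrsf1a to Scml2, 0.189 from Lgals3 to Ifih1 and 0.356 from Cd44 to Cep112. Mgst1 repeated the low value of glioma 3, with 1.28, 1.55 and 0.24 in gliomas and 0.78 and 0.66 in normal brains. Ifih1 repeated the high value of glioma 2 seen in Lgals3, with 0.42, 1.27 and 0.28 in gliomas and -1.86 and -1.56 in normal brains. These distances over 5 arrays are descriptions.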

How the data were processed

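RNA from 3 gliomas and 2 normal brains was hybridised on 1 slide of single-colour arrays. The scanner files hold spot intensity values, which the authors extracted with version 10.7.3.1 of Agilent Feature Extraction, as the submitters' processing notes name it. Background subtraction with spatial detrending and 0 or 1 flags for each spot are recorded per the file headers, and scaling between arrays is not. The authors' deposited value table holds log2 values, checked to equal the log2 processed signal (median difference 0, correlation 1 on every array).

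From these, log2 processed signals minus each array's 75th percentile were computed. Control spots and outlier-flagged spots were left out (23 probes lost), repeated spots were averaged, and 28026 of 29796 probes with a RefSeq accession were named, giving 21154 genes. A gene was its brightest probe over all arrays, tested if well above background on at least 2 arrays. Groups were compared with limma 3.58.1 (lmFit and eBayes, two-sided, Benjamini-Hochberg) in R 4.3.3 with version 1.17.8 of data.table, and figures used Python 3.11.15 with pandas 2.3.3 and matplotlib 3.10.9. The fit was tested on simulated data. The number of arrays limits the precision.

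Where a gene was detected on every array of 1 group and none of the other, its fold is a lower bound, against each dim array's lowest signal well above background or the probe's own value where higher. Other settings were normexp with an offset of 50, on median signals because mean signals are not in the files used, quantile normalization, the authors' unscaled values, other filters and probe rules, an intensity trend, a replicate block and each sample left out. The members and lists were chosen with earlier results of these data known. Named beside the members are up to 4 called genes of each list with the largest changes, the genes nearest to a member in role, and each member's nearest profile. A gene that this rule names is not reported here.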

Additional observations from a re-analysis of the deposited data

How the results depend on the processing

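Of 116 values of the 9 genes under other settings, none changed direction, 4 lost the call and 10 gained it. Of 667 values of 52 other named genes, 57 lost the call, 3 gained it and 5 reversed. Runx2 was at -0.01 with normexp correction, -0.65 with the replicate block, -0.65 without glioma replicate 3 and -0.07 without normal brain replicate 2, and Nfkb2 at -0.24 without glioma replicate 2. With samples left out in turn Runx2 ranged from -0.65 to 0.60 and Nfkb2 from -0.24 to 0.37. The cause was not tested. Over the same omissions, called genes numbered 4629 to 9325, rises 1973 to 4334, falls 2625 to 4991 and called members 4 to 8. Where 1 normal brain remained, it was assumed to vary like the gliomas. The numbers of calls in the other settings lay between 7933 and 9957. The unscaled values gave 5599 rises and 3184 falls. Same-numbered samples share only a number (correlations of their deviations 0.013 and 0.049). No normal brain is numbered 3, so with the replicate block glioma 3 does not enter the change, which repeats that without glioma 3. Cd44 (1.49 in both) and Runx2 (-0.65 in both) are examples. The block gave 8269 calls and 8 called members, among them Cd44, with 5 rises and 3 falls in the CD44 and hyaluronan list. Signal over background limits Met, the Runx1 and dim Cd44 probes, Runx3, Tnf, Tnfrsf1b, Birc3, Hgf, Mst1r, Has1, Has2, Lyve1 and Icam1. Normexp correction also moved the changes of Pim1 to 1.22, St14 to 1.24, Timp1 to 1.38 and Nfkb2 to 0.04.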
